A study of Mus musculus with 2 samples.

Results

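The NF-kappaB system was described through 10 genes of the deposited table, chosen by symbol: the subunits Nfkb1, Nfkb2, Rel, Rela and Relb, the inhibitors Nfkbia, Nfkbib and Nfkbie, and the feedback genes Tnfaip3 and Birc3. All 10 were found among the 55414 genes listed. RNA was sequenced from NHOS cells, a mouse osteosarcoma line, as a mock-transfected control and as a transfectant carrying IL10RB, the accessory chain of the interleukin-10 receptor, which also serves several related cytokine receptors. Both were grown in DMEM with serum and Geneticin, and no cytokine treatment is named in the labels. Whether either culture was 1 clone or a pool is not given in the sources used here, nor is the species of the IL10RB construct. There was 1 library per group, so every difference below is between 2 libraries, with no replicate check, no test and no p-value.

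NF-kappaB is a family of dimeric transcription factors built from the 5 subunits. In resting cells, inhibitors with ankyrin repeats hold the dimers in the cytoplasm, and receptor signals through the IKK kinases destroy the inhibitors and free the dimers. The freed dimers switch on many inflammatory and survival genes, among them their own inhibitors and ubiquitin-editing enzymes, which close a negative feedback loop. A separate, slower branch runs through the kinase NIK and the pair RelB and Nfkb2, and in bone the pathway is known for its roles in osteoclast formation and in osteoblast restraint.

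Depth was 18766072 estimated counts for mock and 23898132 for the transfectant. A count above 0 was found for 24867 and 19693 genes, so more genes were detected in the shallower library. Mouse Il10rb went from 26.2 CPM to 67.5 CPM between mock and transfectant, where CPM is the count scaled for depth with TMM factors. All 10 osteoblast lineage markers had at least 50 counts, and the defining genes Runx2, Sp7 and Alpl were present in both libraries at 103 and 136, 182 and 166, and 2134 and 1508 CPM. By the 2-fold rule given below, 3 of these 10 markers were called higher and 0 lower. The markers called higher were the matrix genes Ibsp (8.86-fold, 7.89 to 9.98), Bglap (5.64-fold, 4.54 to 7.08) and Spp1 (4.05-fold, 3.40 to 4.84). The part of this difference in the levels of the NF-kappaB genes was not tested. Intervals are exact at 95% if the reads are independent, and they describe counting error alone, without variation between cultures. The reads carry no molecular identifiers, so reads copied from the same molecule cannot be recognised. Such copies would make the intervals too narrow, by an amount that was not tested. In RNA from whole cultures, fewer cells of a type and less RNA per cell cannot be told apart.

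Because several of these genes are textbook targets of NF-kappaB itself, their promoters were searched for the kappaB motif. RefSeq promoter windows (GRCm38.p6, 250 bases before to 50 after a start) were given for 8 of the 10 genes, in 11 windows. Nfkb1 and Relb had none. A loose kappaB pattern of 3 G, any 5 bases and 2 C, searched on both strands, was found for 7 of the 8 genes, all but Nfkbib. It was also in 50.8% of 32851 promoter windows of the genome, so it separates little. The stricter kappaB consensus was found for 5 of the 8 genes (7 of 11 windows) and in 4.51% of all windows. Every consensus match is also a match to the loose pattern, and some matches overlap each other. The stretches below hold these matches in the 5 genes that had one, written 5′ to 3′ on the gene's strand and ending before the start site, with the consensus matches in capitals.
Nfkb2, chr19:46304678-46304736, plus strand: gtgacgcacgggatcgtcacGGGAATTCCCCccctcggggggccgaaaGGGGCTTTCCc
Nfkb2, another start, chr19:46305685-46305734, plus strand: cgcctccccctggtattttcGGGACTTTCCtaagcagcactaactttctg
Nfkb2, a further start, chr19:46305445-46305488, plus strand: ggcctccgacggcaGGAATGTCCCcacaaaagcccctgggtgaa
Rel, chr11:23771031-23771081, minus strand: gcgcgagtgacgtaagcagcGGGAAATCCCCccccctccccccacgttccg
Nfkbia, chr12:55492648-55492696, minus strand: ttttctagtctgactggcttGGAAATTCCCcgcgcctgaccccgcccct
Nfkbie, chr17:45555574-45555623, plus strand: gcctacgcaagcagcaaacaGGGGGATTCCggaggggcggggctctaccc
Tnfaip3, chr10:19015411-19015555, minus strand: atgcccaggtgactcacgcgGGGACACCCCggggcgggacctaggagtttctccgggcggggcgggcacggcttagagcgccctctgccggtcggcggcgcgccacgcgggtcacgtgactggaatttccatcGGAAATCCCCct

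The Nfkbia match lay 20 to 29 bases before the start, and that of Nfkbie 97 to 106 bases before it. In Nfkb2 the windows of different starts overlap, so the match shown for chr19:46305685-46305734 also lies inside a neighbouring window. Of the genes with a consensus match, Nfkbie was at least 2-fold higher in the transfectant library, Nfkbia and Tnfaip3 were higher by less than 2-fold, and Nfkb2 and Rel were lower by less than 2-fold. Birc3, which differed most between the libraries, had no consensus match in its window, and neither had Rela or Nfkbib. A match is a description of letters and not evidence of binding.

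The subunits lay at or below their mock level in the transfectant library, while 2 of the 3 inhibitors and both feedback genes lay above theirs. At a fold of 2, Birc3 and Nfkbie were called higher and Relb lower, and the other 7 genes were within 2-fold. A call was made at a 2-fold difference on the scale log2(CPM + 0.5), with at least 50 counts in 1 library. The background is wide: of 11952 genes past that floor, 19.7% were called higher and 11.9% lower. The members' 2 and 1 of 10 are near these shares. By direction alone, 4 members had a log2 fold above 0 and 6 below, against 6343 and 5609 of the 11952 genes. All 10 members passed the floor, Nfkbie only through the transfectant library. Their median log2 fold was -0.15, against 0.07 over all genes past the floor.

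**Figure D1:**
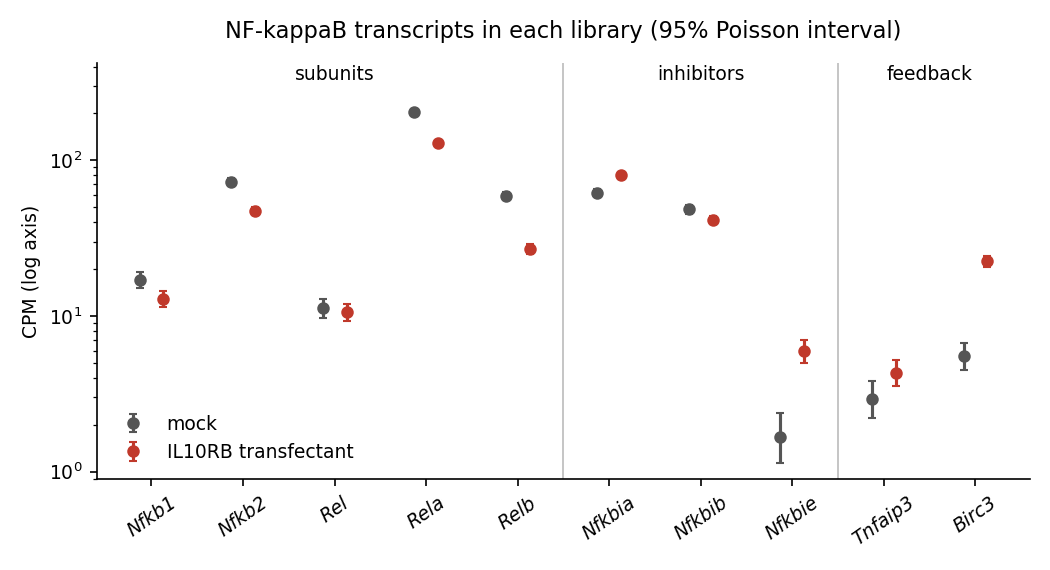
CPM of the 10 NF-kappaB genes in the mock (grey) and IL10RB transfectant (red) library on a log axis, 1 library each, with exact Poisson 95% intervals as bars. The pairs of Relb, Nfkbie and Birc3 are furthest apart, and the intervals of Rel and of Tnfaip3 overlap between the libraries.

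Among the subunits, Rela, the transactivating partner of the classical dimer, was the most abundant member by CPM in both libraries. It had 3788 mock counts, or 205 CPM (199 to 212), and 3152 transfectant counts, or 129.7 CPM (125 to 134). It was therefore 1.58-fold lower in the transfectant library (1.51 to 1.66). Of all genes past the floor, 78.6% had a higher log2 fold than Rela. Nfkb1, whose product is processed to the DNA-binding partner of RelA, gave almost the same count in both libraries, 315 and 314. With the transfectant library being deeper, these correspond to 17.1 CPM (15.2 to 19.1) and 12.9 CPM (11.5 to 14.4), 1.32-fold lower (1.13 to 1.55). The deposited TPM values of Nfkb1, 9.69 and 5.49, are further apart than its CPM values. On the log2 scale with a pseudocount of 0.5, the Nfkb1 difference is -0.77 from TPM and -0.39 from counts.

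Rel, the subunit best known from lymphocytes, was low in both libraries. It had 206 mock counts, or 11.2 CPM (9.69 to 12.8), and 257 transfectant counts, or 10.6 CPM (9.32 to 11.9). Its ratio of 0.947 had an interval of 0.785 to 1.14, and it was the only member whose interval included 1. By that measure 4 members were higher and 5 lower, against a background of 45.7% and 40.4% of genes past the floor. An interval that excludes 1 is common at this depth, in 86.1% of those genes.

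Relb and Nfkb2 form the dimer of the NIK branch. Relb had 1085 mock counts, or 58.8 CPM (55.4 to 62.4), and 655 transfectant counts, or 26.9 CPM (24.9 to 29.1). This is 2.18-fold lower, the only subunit past 2-fold, with an interval of 1.98 to 2.41 that reaches just below 2, and 9.69% of genes past the floor had a lower log2 fold. Nfkb2, the precursor that partners RelB, stood at 72.5 CPM (68.7 to 76.5) in the mock library against 47.3 CPM (44.6 to 50.1), 1.53-fold lower (1.42 to 1.66). Nfkb2 was the only member with a fractional estimated count (1338.28 and 1149.15), which reads assigned to more than 1 gene produce. It overlaps Psd and the noncoding 4833438C02Rik on the opposite strand, with 103 and 225 counts for Psd and 50 and 181 for the noncoding gene. Strand use in counting was not stated, and the part of these overlaps in the Nfkb2 value was not tested.

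The 3 inhibitors differed from each other in level and in direction. Nfkbia, which encodes IkappaB-alpha, the rapidly resynthesised inhibitor, had 1146 mock counts, or 62.1 CPM (58.6 to 65.8), and 1943 transfectant counts, or 79.9 CPM (76.4 to 83.6). It was 1.29-fold higher (1.20 to 1.39), and 38.3% of genes past the floor had a higher log2 fold. Nfkbib, which encodes the slower-acting IkappaB-beta, stood at 48.5 CPM (45.3 to 51.7) in the mock library against 41.4 CPM (38.9 to 44.1). Its ratio was 0.855 (0.780 to 0.936), a small difference in the other direction. Nfkbib overlaps Sirt2 on the opposite strand, with 1352 and 1564 counts, and the part of Sirt2 reads in its value was not tested.

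Nfkbie, which encodes IkappaB-epsilon, was the rarest inhibitor. It had 31 mock counts, or 1.68 CPM (1.14 to 2.39), and 144 transfectant counts, or 5.92 CPM (5.00 to 6.97). The transfectant library was 3.52-fold higher (2.38 to 5.38), and 10.6% of genes past the floor had a higher log2 fold. Its wide interval reflects the 31 counts in mock. Compared per length, its deposited TPM of 0.843 in mock and 3.08 in the transfectant stayed far below the 78.6 and 95.3 TPM of Nfkbia.

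The feedback genes both had higher levels in the transfectant library, by different amounts. Birc3, a ubiquitin ligase of the cIAP group that acts at TNF receptor complexes and helps to degrade NIK, had 102 mock counts, or 5.53 CPM (4.51 to 6.71), and 544 transfectant counts, or 22.4 CPM (20.5 to 24.3). This was a 4.05-fold difference (3.27 to 5.05), the widest among the members, and 6.93% of genes past the floor had a higher log2 fold. Tnfaip3, the ubiquitin-editing enzyme that shuts down IKK activation, had 54 mock counts, or 2.93 CPM (2.20 to 3.82), and 105 transfectant counts, or 4.32 CPM (3.53 to 5.23). Its ratio of 1.48 had an interval of 1.05 to 2.09, so a difference of 2-fold is within counting error.

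**Figure D2:**
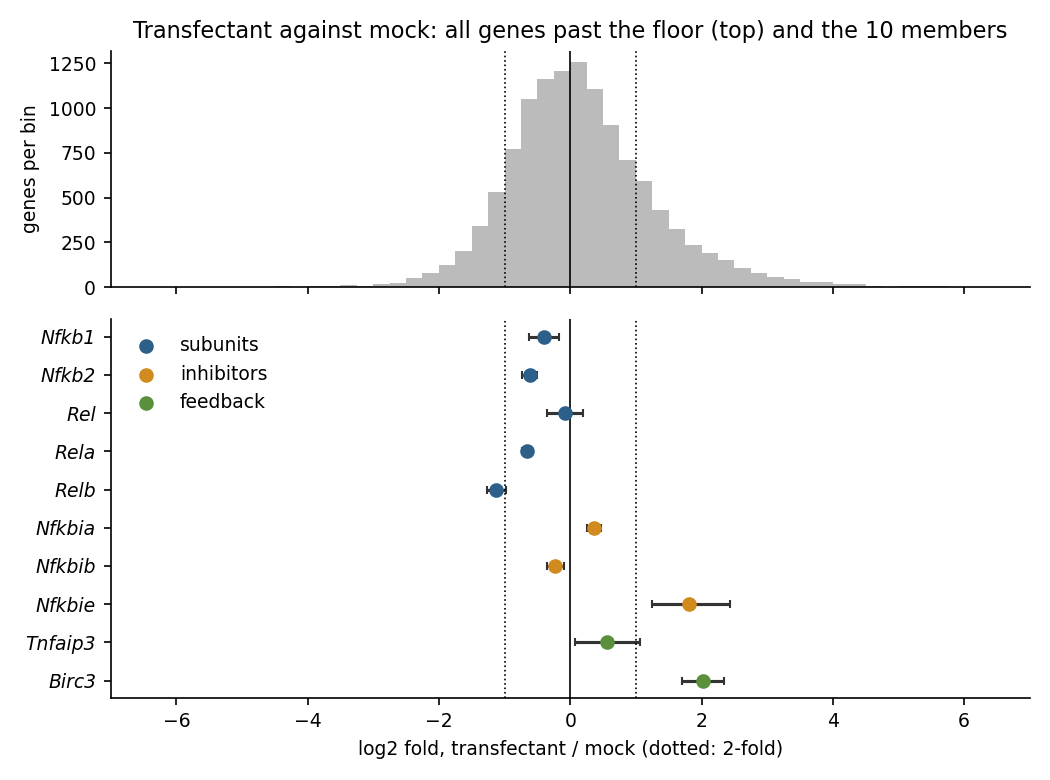
Upper panel: number of genes past the floor of 50 counts in each bin of log2 fold (transfectant over mock, CPM + 0.5). Lower panel: log2 ratio of CPM for each member with its exact 95% counting interval, coloured by role, and dotted lines at 2-fold. Relb lies left of the lower line, Nfkbie and Birc3 right of the upper one.

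Levels of different genes were compared on the deposited TPM scale, which accounts for transcript length. In mock the order was Rela, Nfkbia, Nfkbib, Relb, Nfkb2, Nfkb1, Birc3, Rel, Nfkbie and Tnfaip3, from 98.3 TPM for Rela to 0.764 TPM for Tnfaip3. In the transfectant it was Nfkbia, Rela, Nfkbib, Nfkb2, Relb, Birc3, Nfkb1, Nfkbie, Rel and Tnfaip3, from 95.3 to 1.17 TPM. Counting intervals of neighbours in the order overlapped for Birc3 and Rel and for Nfkbie and Tnfaip3 in mock, and for Nfkb2 and Relb in the transfectant. Nfkbia and Rela changed places, and Birc3 passed Nfkb1 with 14.1 against 5.49 TPM.

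By role, the 5 subunits summed to 177 TPM in mock and 107 TPM in the transfectant. The 3 inhibitors summed to 141 and 149 TPM, and the feedback genes to 3.54 and 15.3 TPM. The ratio of summed inhibitor to summed subunit TPM was thus 0.796 in mock and 1.40 in the transfectant. This ratio is taken within a library and does not depend on the scaling between libraries. It was 1.79 and 3.36 without Rela in the subunit sum, and 0.352 and 0.508 without Nfkbia in the inhibitor sum. Nfkbia alone stood at 0.800 of Rela in mock and at 1.54 of it in the transfectant. Within the subunits, the sum of Relb and Nfkb2 was 0.612 of the sum of Rela, Rel and Nfkb1 in mock and 0.532 of it in the transfectant. These are unequal differences between transcripts of 2 libraries, and they say nothing of protein or of dimers.

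**Figure D3:**
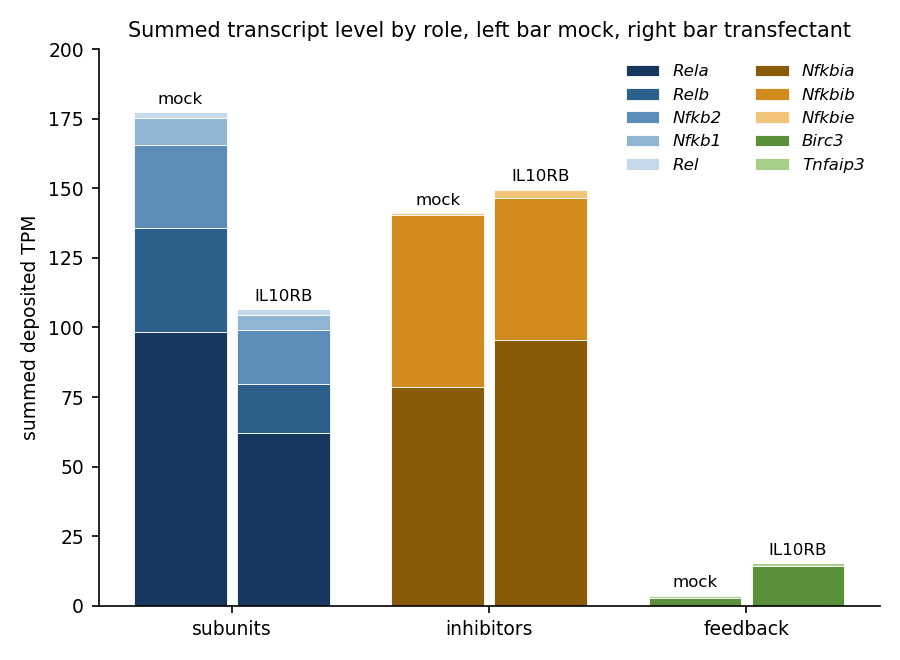
Deposited TPM summed over the 5 subunits, the 3 inhibitors and the 2 feedback genes, left bar mock and right bar transfectant, stacked by gene, with no replicates. The subunit stack is 177 TPM in mock and 107 TPM in the transfectant, and the inhibitor stacks are 141 and 149 TPM.

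The kinases upstream of the inhibitors were split. Their list also holds the partner proteins Ikbkg, Tab1, Tab2 and Tab3, which are not kinases but are counted with them throughout. Where a pair of counts or CPM values follows a gene name from here on, mock is given before the transfectant. Each count of called genes from here on stands beside the same background, 19.7% higher and 11.9% lower of all genes past the floor. The median log2 fold of that background was 0.07. Of the 17 genes in the list of kinases, 16 passed the floor, of which 3 were called higher and 4 lower. Their median log2 fold was -0.17. Ikbke, the inducible IKK-related kinase, was at 8.56 and 24.2 CPM, 2.82-fold higher (2.37 to 3.39). Irak4, which starts signalling below the interleukin-1 and Toll-like receptors, was at 5.85 and 14.6 CPM, 2.49-fold higher (2.0 to 3.11). Map3k8, a kinase that activates both ERK and NF-kappaB pathways, had 0 and 60 counts. With 3 counts taken for the empty mock library, it was at least 15.2-fold higher. Irak3, a brake on that receptor pathway, had 0 and 18 counts. Ripk2, the kinase below the NOD sensors, was at 38.0 and 16.1 CPM, 2.36-fold lower (2.08 to 2.67). The IKK complex, named after its values were seen, was uneven. Its catalytic chains Chuk and Ikbkb were 2.12-fold (1.92 to 2.34) and 2.04-fold (1.83 to 2.28) lower, whereas the scaffold Ikbkg had a ratio of 1.25 (1.11 to 1.41). Tab2, an adaptor of the kinase TAK1 likewise named after its values were seen, was 2.05-fold lower (1.76 to 2.39), so 3 of the 4 lower calls lie just past the 2-fold line. On the deposited TPM, Ikbkb and Tab2 were within 2-fold, with log2 differences of -0.89 and -0.95. NIK itself, Map3k14, had only 62 and 52 counts and a ratio of 0.636 (0.432 to 0.935).

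Among 24 adaptors and ubiquitin ligases, 20 passed the floor, 2 were called higher and 2 lower, and the median log2 fold was -0.21. Birc2, the close relative of Birc3, was at 6.50 and 32.5 CPM, 5.00-fold higher (4.12 to 6.11). The ratio of Birc3 to Birc2 ran in opposite directions by unit. From TPM it was 0.613 in mock and 0.855 in the transfectant, and from counts 0.850 and 0.689, so these values do not order the differences of Birc2 and Birc3. Both genes had whole-number counts in both libraries. They are closely related paralogs, so how reads were split between them is uncertain. Tradd, the death-domain adaptor of the TNF receptor, was 2.03-fold higher (1.85 to 2.23). Traf6, the ubiquitin ligase below interleukin-1 and Toll-like receptors, was at 62.9 and 17.7 CPM, 3.55-fold lower (3.17 to 3.97). Traf3, which with the cIAP ligases keeps NIK low, had 369 and 213 counts, 2.28-fold lower (1.92 to 2.72). Its deposited TPM of 4.30 and 3.24 is less far apart, a log2 difference of -0.36 against -1.15 from counts, and is within 2-fold. Traf1, a classical inducible target, had 0 and 3 counts, and Card9 had 0 in both libraries.

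Other brakes and cofactors of the pathway numbered 22, of which 19 passed the floor, 1 was called higher and 3 lower. Pdlim2, a nuclear ubiquitin ligase that ends RelA activity, was at 13.3 and 169 CPM, 12.7-fold higher (11.2 to 14.6). Cyld, a deubiquitinase that restrains IKK, was at 163 and 61.6 CPM, 2.65-fold lower (2.49 to 2.82). The deubiquitinase Otud7b was at 88.4 and 32.5 CPM, 2.72-fold lower (2.49 to 2.96), and the ligase Itch at 89.4 and 31.3 CPM, 2.86-fold lower (2.62 to 3.12). The list's median log2 fold was 0.15.

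Receptors and sensors that feed the pathway included 6 called higher and 1 lower, of 17 past the floor and 21 listed. The shares over all genes past the floor were 19.7% and 11.9%. The list's median log2 fold was 0.34, against 0.07 over all genes. Nod1, a sensor of bacterial cell wall fragments, was at 3.09 and 18.4 CPM, 5.95-fold higher (4.51 to 7.98). Tlr3, a receptor for double-stranded RNA, was at 1.90 and 8.14 CPM, 4.29-fold higher (2.99 to 6.34). Tlr6 (47 and 178 counts) and Tlr5 (8 and 50 counts) were 2.87-fold (2.07 to 4.05) and 4.74-fold (2.23 to 11.6) higher. Tlr3, Tlr5 and Tlr6 passed the floor through the transfectant library alone, and with the deposited TPM or a pseudocount of 2 the list had 3 higher calls. The lower gene, named after its value was seen, was Tnfrsf12a, the receptor for TWEAK, at 514 and 239 CPM, 2.15-fold lower (2.08 to 2.22). The list's summed level was 824 and 654 CPM. Tlr7 and Tlr9 had 0 counts in both libraries, and Il18r1 had 7 and 0.

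Target genes of the classical pathway were measured for 21 of 38 listed, and 6 had 0 counts in both libraries, among them Il1a, Il1b, Csf2 and Sele. Of the 21, 7 were called higher and 4 lower, against 19.7% and 11.9% of all genes past the floor. Their median log2 fold was 0.25, against 0.07 over all genes. At a floor of 200 counts, 14 were measured, 4 were called higher and the median was -0.10, so the sign of the median depends on the floor. The largest differences ran in both directions. The monocyte chemoattractants Ccl2 and Ccl7 had 15 and 3 counts in mock against 368 and 148 in the transfectant, and the adhesion molecule Vcam1 had 4 against 135. These 3 genes passed the floor through the transfectant library alone. So did the chemokine Cxcl1, also called higher and named after its values were seen, at 37 and 134 counts. With so few mock counts the intervals of the ratios are wide, at 11.1 to 33.6 for Ccl2, 12.6 to 184 for Ccl7 and 9.77 to 95.4 for Vcam1. The cytokine Lif was at 15.4 and 1.44 CPM, 10.7-fold lower (7.51 to 15.7), with deposited TPM of 5.65 and 1.10. Ccl5, also a chemokine and named after its values were seen, was at 9.38 and 1.40 CPM, 6.71-fold lower (4.62 to 9.99). Tnf had 1 and 0 counts, Icam1 had 0 and 15, Mmp3 had 0 and 39, Ccl20 had 0 and 6, and Cxcl2 had 0 and 2. Bcl2a1d had 0 counts in both libraries.

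Of 8 genes listed as targets of the NIK branch, only Cxcl12 and Enpp2 passed the floor. Whether the listed genes depend on that branch in these cells was not tested. Cxcl12, a stromal chemokine, was at 82.2 and 332 CPM, 4.04-fold higher (3.82 to 4.27). Enpp2, which encodes autotaxin, had 14 and 178 counts, 9.65-fold higher, and passed the floor through the transfectant library alone. Relb was lower in the same library, and a link between Relb and Cxcl12 or Enpp2 was not tested. Ccl19, Cxcl13 and Madcam1 had 0 counts in both libraries, while Tnfsf13b (6 and 0 counts) and Il12b (2 and 0) had no transfectant counts.

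**Figure D4:**
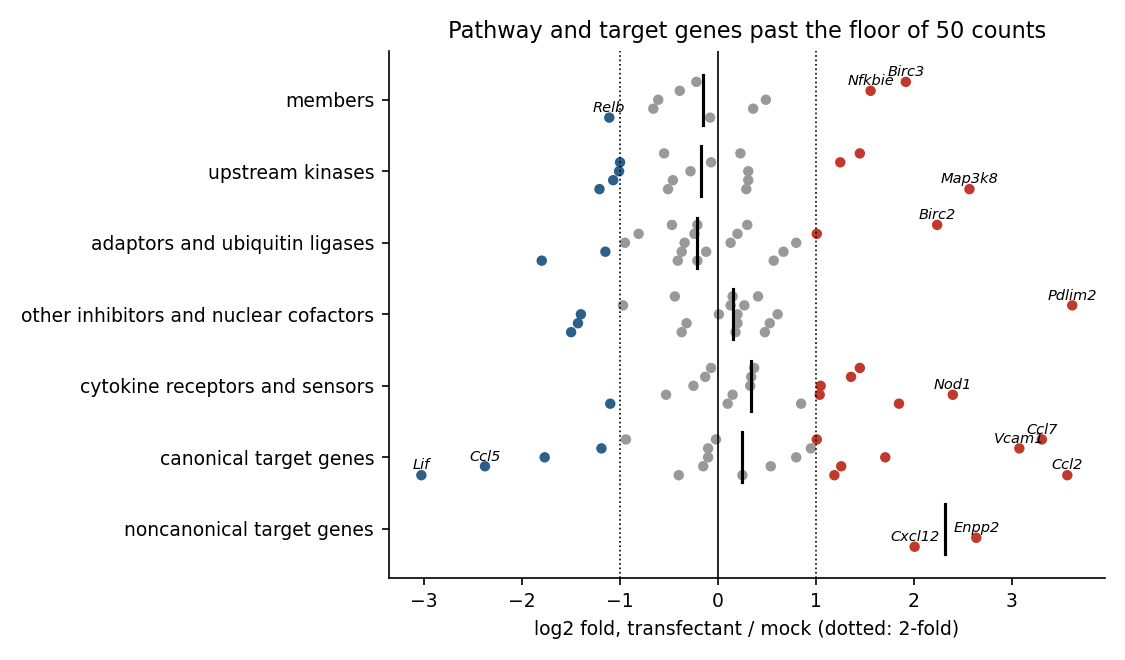
Log2 fold (transfectant over mock, CPM + 0.5) of each gene past the floor, by list, with genes called higher in red, called lower in blue and within 2-fold in grey. The black bar is the list's median, which lies between -0.21 and 0.34 except for the 2 genes of the NIK branch. Genes past 4-fold and the 3 called members are named.

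Leukocytes express Rel, Birc3 and Nfkbie strongly, so their markers are given beside these genes. Of 10 macrophage markers, 4 passed the floor, 2 were called higher and 1 lower, and their summed level was 10.7 CPM against 44.3 CPM in the transfectant. The 2 called higher, Lyz2 and Cd68, passed the floor through the transfectant library alone. Lyz2 made up most of the transfectant sum, at 5 and 626 counts. Cd68 had 12 and 150 counts, 9.49-fold higher (5.27 to 18.8), Cd14 had 87 and 240, 2.09-fold higher (1.63 to 2.71) but not called on the log2 scale, and Fcer1g had 6 and 36, under the floor. Csf1r, the marker called lower, had 57 and 24 counts, a ratio of 0.320 (0.190 to 0.523). The defining genes Ptprc (27 and 0 counts), Adgre1 (1 and 0), Spi1 (3 and 0), Itgam (0 in both) and Tyrobp (0 in both) were at or near 0 in the transfectant library. Lymphocyte markers had 0 of 8 past the floor and summed to 1.57 and 1.36 CPM, and endothelial markers had 0 of 6 past it and summed to 1.84 and 0.494 CPM. Of 6 fibroblast markers, 5 passed the floor and all 5 were called higher, with summed levels of 106 and 325 CPM and Thy1 at 1 and 0 counts. The part of macrophage and fibroblast transcripts in the levels of Birc3 and Nfkbie was not tested.

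The genomic surroundings of the members were examined after their values were seen, over protein coding genes within 500 kb on either side. Positions are as the deposited table gives them, with the build not stated. They are not on the GRCm38.p6 build of the promoter windows above, so the 2 sets of positions cannot be combined. Around Birc3 (chromosome 9, 7848700 to 7873187), Birc2 at 11.6 kb was the only one of 4 neighbours past the floor that was called. Tmem123 at 54.4 kb and Yap1 at 58.8 kb had ratios of 1.44 and 1.09. Around Nfkbia (chromosome 12, 55536195 to 55539432), 8 of 12 neighbours were called lower and 0 higher. Their median log2 fold was -1.11, against -0.32 for the 412 genes past the floor on chromosome 12. Nfkbia itself, at 0.36, lay on the other side of 0. Its nearest measured neighbour Psma6 had a ratio of 1.05. Several of these neighbours share reads or come in copies, as Srp54a, Srp54b and Srp54c do, so they are not separate measurements. Around Relb, 2 of 24 neighbours were called higher and 4 lower, and around Nfkbie 1 of 10 higher and 2 lower. Rela lay among 45 measured neighbours, of which 15 were called higher and 2 lower. The shares over all genes past the floor were 19.7% higher and 11.9% lower.

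**Figure D5:**
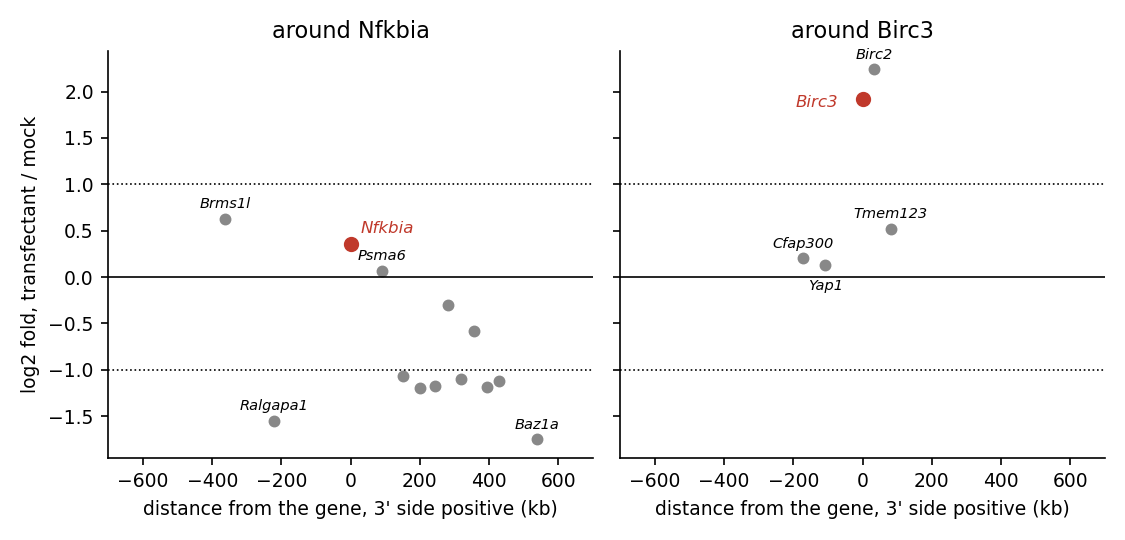
Log2 fold (transfectant over mock, CPM + 0.5) of protein coding genes past the floor against the distance of their centre from that of Nfkbia (left) or Birc3 (right), the member in red, dotted lines at 2-fold. Nfkbia lies above 8 neighbours that are past 2-fold lower, and Birc2 stands beside Birc3 above the other neighbours.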

How the data were processed

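RNA of 1 mock and 1 IL10RB-transfected NHOS culture was made into SMART-Seq v4 libraries, per the labels' protocols. The submitters' processing notes name DRAGEN. Its settings, the genome build and strand use were not stated. Per the file headers, the authors deposited an estimated count for each gene, not normalised, and a TPM value scaled for length and depth by their pipeline. Gene positions are as deposited.

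Estimated counts were rounded and scaled to CPM with TMM factors (edgeR 4.0.16, R 4.3.3). DESeq2 1.42.0 gave alternative size factors. No count test was run. A single count equalled 0.0542 (mock) or 0.0411 CPM (transfectant). Folds in the text are CPM ratios with exact conditional (Clopper-Pearson) 95% intervals, levels carry exact Poisson intervals, and log2 folds are of CPM + 0.5, which understates low genes. A library at 0 was set at 3 counts for a bound. A call needed 2-fold and 50 counts. The scaling, call rule and intervals were run on simulated Poisson counts in which a small set of genes had known folds. Such counts hold no variation between cultures, so the run checks the code and not the folds reported here. Scripts ran in Python 3.11.15 with scipy 1.17.1, numpy 2.4.6, matplotlib 3.10.9 and pandas 2.3.3.

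The members and lists were chosen with earlier results of these data known. Named were all members, Il10rb, up to 4 genes per list with the largest absolute log2 fold, and list genes at 0 counts in a library. Others are said to be named after their values were seen. Alternatives were other scalings, pseudocounts, floors and folds, a call by the counting interval, protein coding genes, the deposited TPM and a stricter motif.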

Additional observations from a re-analysis of the deposited data

How the results depend on the processing

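Each member other than Rel kept its direction in every alternative that gave a value, and Relb (-1.23 to -1.06 on the log2 scale), Nfkbie (1.11 to 1.76) and Birc3 (1.69 to 2.15) stayed past 2-fold. Rel ran from -0.19 to 0 at the printed precision. For some members 1 alternative fell outside the counting interval. With upper quartile scaling these were Rela (-0.78) and Nfkbia (0.24). With a pseudocount of 2 they were Nfkbie (1.11) and Birc3 (1.69), and with the deposited TPM Nfkb1 (-0.77). Nfkbie and Tnfaip3 gave no value at a floor of 200 counts. At 1.5-fold, 3 members were lower, 4 adaptors higher and 4 lower, 2 other inhibitors higher, and of all genes 3666 higher and 2853 lower. At 4-fold, 0 members were higher or lower. Higher at 4-fold were 1 kinase, 1 adaptor, 1 receptor, 3 classical targets and 6 Reactome genes, lower were 2 classical targets and 0 kinases, adaptors, other inhibitors, receptors or Reactome genes, and of all genes 772 were higher and 221 lower. By the counting interval, 4 members were higher and 5 lower, 7 kinases higher and 8 lower, 6 adaptors and 10, 8 other inhibitors and 7, 10 receptors and 2, 31 Reactome genes and 24, 8 classical targets lower, and 5458 of all genes higher and 4830 lower. With the deposited TPM, 2 kinases and 1 adaptor were lower and 3 receptors higher. At a floor of 200 counts, 1 member, 2 receptors, 4 classical targets and 1 target of the NIK branch were higher, the median of the classical targets turned from 0.25 to -0.10, and the median of all genes was 0.04. With no floor, 2 other inhibitors and 17 Reactome genes were higher, 2316 of all genes were lower, the NIK-branch median was 0.01 and that of all genes -0.15. With a pseudocount of 2, 2 kinases were lower, 1 adaptor and 3 receptors higher, and the NIK-branch median was 1.87. With total counts, 2 kinases were lower and the median of all genes was 0.12. With upper quartile scaling, 1 adaptor was higher and 3 lower, 4 receptors were higher, the median of all genes moved from 0.07 to -0.04, and 2064 of all genes were higher and 1750 lower. Fewer or more genes tested account for the moves with the floor, and the threshold for those with the fold. The cause of the others was not tested. The remaining counts moved by at most 1.5 times, and the remaining medians within the binomial interval of their median. No paired analysis was possible because there was a single library for mock and for transfectant. Depth limits Nfkbie and Tnfaip3 most.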

Other observations

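Reactome pathways whose deposited name holds NF-kappaB listed 95 genes, of which 64 passed the floor, 11 were called higher and 10 lower, with a median log2 fold of 0.17. Over all genes past the floor, the shares were 19.7% and 11.9% and the median 0.07. Only 3 of the 10 members, Birc3, Nfkbie and Relb, are annotated to one of these pathways in the deposited table. The TNFR2 non-canonical pathway had 4 higher and 3 lower of 21, and TRAF6 mediated induction after TLR7/8 or 9 activation had 6 higher and 6 lower of 35. The 2 pathways of NIK and of Dectin-1 noncanonical signalling each had 1 lower, Relb, of 5 past the floor and a median of -0.39.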
